A study of Mus musculus with 4 samples.

Results

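The lysyl oxidases and collagen-modifying enzymes are 10 genes taken by name, Lox, Loxl1, Loxl2, Loxl3, Loxl4, Plod1, Plod2, Plod3, P4ha1 and Serpinh1, out of 24441 rows of an expression table of mouse skin. All 10 are in the table, and 9 of them passed the filter of at least 1 FPKM in at least 2 libraries that set the 13027 genes tested. The table holds 4 libraries, 2 from WT mice and 2 from mice that lack Gsdmd on both alleles (GSDMD KO mice). All were labelled as female C57BL/6 animals 8 weeks old, and every one of them had received bleomycin (BLM), a cytotoxic antibiotic used to provoke skin fibrosis, under the skin of the back every other day over 28 days, so no untreated or saline-treated library enters these comparisons. The KO line was made by injecting Cas9 mRNA and a guide RNA into C57BL/6 fertilized eggs, and the deletion was not limited to a cell type. Total RNA came from biopsies of 1 by 0.5 cm of lesional skin, a mixture of epidermis, dermis, fat and muscle. No source says that libraries of a group share an animal or litter, and p-values measure the spread between these libraries alone.

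Collagen is modified in 2 places. Inside the cell, prolyl 4-hydroxylases such as the one whose catalytic alpha subunit is P4ha1 stabilise the triple helix, the lysyl hydroxylases Plod1, Plod2 and Plod3 hydroxylate lysines, and Serpinh1 (Hsp47) is the chaperone that escorts procollagen through the secretory pathway. Outside the cell, the copper-dependent lysyl oxidases Lox and Loxl1 to Loxl4 oxidise lysines and hydroxylysines of collagen and elastin, from which covalent crosslinks form. Fibroblasts make most of these enzymes in the dermis, and crosslinked collagen is the material of a fibrotic scar.

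In these skin samples 6 of the 9 tested genes, Lox, Loxl1, Loxl2, Loxl3, Plod1 and Plod3, were at least 2-fold lower in KO replicate 2 than in every other library, an order that 11.0% of all genes tested had. KO replicate 2 held 1.28 FPKM of Loxl1 and 0.537 FPKM of Loxl2, against 10.8 to 13.3 FPKM of Loxl1 and 7.33 to 8.06 FPKM of Loxl2 in the other 3 libraries. KO replicate 1 lay within the range of the WT libraries for 7 of the 9 tested genes, against 26.9% of all genes tested. This count holds for FPKM as listed. With median-ratio or upper-quartile scaling, KO replicate 1 fell under the WT range in at least 5 of the 9. In those 5 the KO values were then wholly under the WT values, an order in 26.9% and 25.5% of all genes tested. In KO replicate 2, P4ha1 and Plod2 were within the range of the WT libraries. The WT and KO values did not overlap for Loxl3, lower in KO mice, and for Loxl4, higher in KO mice and too low to be tested. Over all genes tested, 20.5% did not overlap with lower KO values and 35.3% with higher KO values. Of the 9 tested genes, 0 passed an adjusted p under 0.05 with an absolute log2 fold change above 1 (0.0% of all genes tested), and 0 had an unadjusted p under 0.05 by limma, which 6.22% of all genes tested had in the lower and 10.9% in the higher direction.

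The libraries themselves differed in several ways. Each library summed to between 448544 and 462251 FPKM, and the steps of low values put the worth of 1 fragment on a transcript of 1 kb at about 0.0571 (WT replicate 1) to 0.0782 FPKM (KO replicate 2), the latter being the shallowest library. The knocked-out Gsdmd itself stood at 14.0 and 18.2 FPKM (WT) against 3.53 and 2.26 FPKM (KO), in the direction of the labels, with an adjusted p of 0.248 by limma. Of 7 keratinocyte markers, which summed to 4952 and 3545 FPKM (WT) against 10662 and 5125 FPKM (KO), 3 were higher in both KO libraries than in both WT libraries, near the 35.3% of all genes tested, and 0 were lower. The 3 were Krt5, Krt14 and Dsg3. Krt1, Krt10 and Lor were instead lowest in KO replicate 2, at 279.9, 266.3 and 155.0 FPKM, and Ivl lay between the WT libraries there. For 7 skeletal muscle markers the sums were 23976 and 22395 FPKM (WT) against 14775 and 13744 FPKM (KO), with 5 lower and 0 higher in both KO libraries, against 20.5% of all genes tested that were lower. KO replicate 2 was low in markers of several dermal cell types: 10 fibroblast markers summed to 54.0 FPKM there, while the WT libraries held 288.9 and 227.2 FPKM and KO replicate 1 held 445.1 FPKM. For 7 endothelial markers the sums were 21.9 FPKM against 105.8 to 166.4 FPKM, and for 5 adipocyte markers 208.1 FPKM against 1753 to 4798 FPKM. The sums of 8 macrophage markers were 2059 and 2077 FPKM (WT), 860.9 FPKM (KO replicate 1) and 89.7 FPKM (KO replicate 2), and 7 of the 8 were lower in both KO libraries than in both WT libraries, against the same 20.5%. The part of these cell types in the values below was not tested. No gene of these 4 marker lists was listed at 0 in any library. The same library held 1.78 FPKM of Y-linked genes, 4 of 15 above 0, where the other 3 held none, although the mice are labelled female. KO replicate 1 stood out in hair follicle genes, with a summed 341.0 FPKM for 10 of them against 2.20 to 19.9 FPKM elsewhere. Values are therefore given per library. The fold changes of the tested enzyme genes and the medians of their pathway lists are also given without each KO library. Fold changes of single genes outside the 9 tested come from all 4 libraries unless stated. In bulk skin, fewer cells of a type and less RNA per cell cannot be told apart.

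FPKM divides by transcript length, so levels can be set side by side between genes. In WT mice Serpinh1 was the most abundant, at 77.7 ± 17.8 FPKM (SD, n = 2), followed by Plod3 at 20.0 ± 5.19, Plod1 at 18.7 ± 6.11, Lox at 12.1 ± 2.44, Loxl1 at 11.5 ± 0.977, P4ha1 at 9.09 ± 1.72, Loxl2 at 7.69 ± 0.514, Plod2 at 2.29 ± 0.617, Loxl3 at 2.13 ± 0.284 and Loxl4 at 0.560 ± 0.0126 FPKM. The neighbours Plod3 and Plod1, Lox and Loxl1, P4ha1 and Loxl2, and Plod2 and Loxl3 overlapped in their WT ranges, and the other neighbours did not. Within this list of genes the collagen chaperone was thus above every enzyme, and among the lysyl oxidases Lox and Loxl1 were the main transcripts, with Loxl4 the scarcest.

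**Figure D1:**
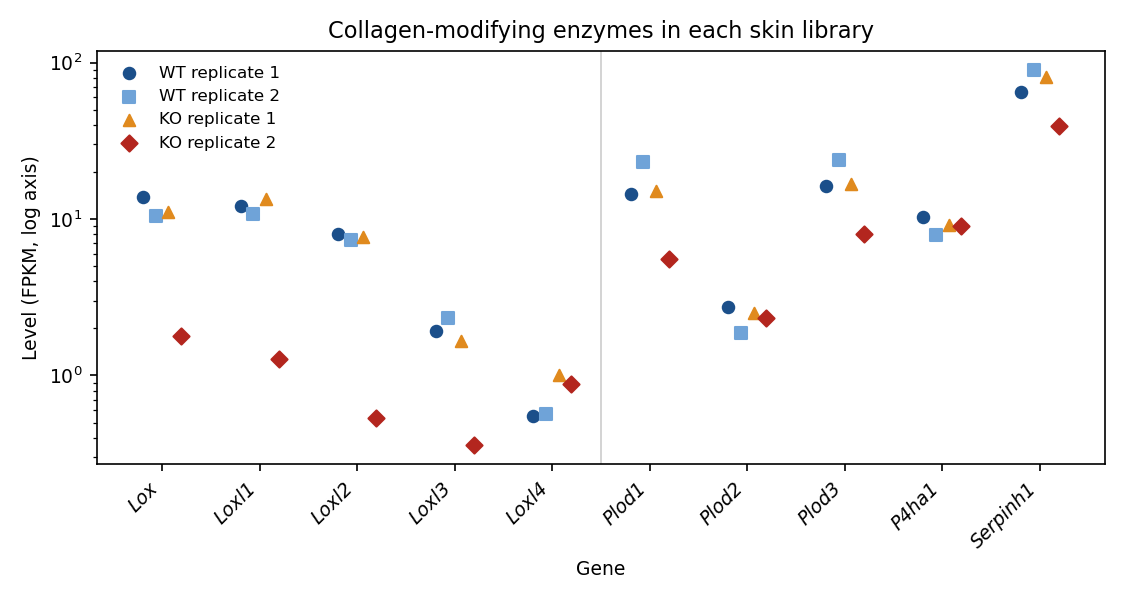
Level of each gene (FPKM, log axis) in the 2 WT and 2 KO libraries, 1 point per library, lysyl oxidases left of the line. KO replicate 2 lies below the other 3 libraries for Lox, Loxl1, Loxl2, Loxl3, Plod1, Plod3 and Serpinh1, and among them for Plod2, P4ha1 and Loxl4.

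The lysyl oxidases share a catalytic domain with a copper-binding stretch that is rich in histidine. Its coding sequence in the 4 Loxl genes was read from the mm9 transcripts and is shown because these genes are close relatives that parted in their levels. Capitals mark the histidine codons, and in each gene an intron splits the stretch.
Loxl1: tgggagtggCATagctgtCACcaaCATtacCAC
Loxl2: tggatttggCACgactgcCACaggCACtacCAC
Loxl3: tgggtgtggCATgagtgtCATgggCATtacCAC
Loxl4: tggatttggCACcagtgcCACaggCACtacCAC
The stretch of Loxl1 is in exons 3 and 4 of 7, at chr9:58141527-58142188 on the minus strand. In Loxl2 it is in exons 10 and 11 of 14, at chr14:70082123-70088844 on the plus strand. The Loxl3 stretch, also in exons 10 and 11 of 14, is at chr6:82999989-83000119 on the plus strand, and that of Loxl4, in exons 11 and 12 of 15, is at chr19:42673297-42674389 on the minus strand. Loxl2 and Loxl4 were alike at 31 of the 33 bases, while Loxl1 and Loxl4 were alike at 21. Over whole coding sequences, the longest run of identical bases between any 2 of the 5 lysyl oxidase genes was 32 bases, between Lox and Loxl1, which is shorter than the reads of 150 bases. The corresponding longest run among the 3 Plod genes was 24 bases, between Plod1 and Plod3.

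Lox, the founding lysyl oxidase, which acts on collagen and elastin, is on chromosome 18 of mm9 from 52675714 to 52689521. WT replicates 1 and 2 held 13.9 and 10.4 FPKM of it, KO replicates 1 and 2 held 11.1 and 1.78 FPKM. KO replicate 1 was between the WT libraries and KO replicate 2 was 5.86 times below the lowest of the other 3, so the groups overlapped. The log2 fold change was -1.17 (standard error, SE, 0.71, limma adjusted p = 0.415), on the log2(FPKM + 1) scale used for every fold change here.

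Loxl1, which crosslinks elastin in particular, is on chromosome 9 from 58135530 to 58161019. Its levels were 12.2 and 10.8 FPKM (WT) against 13.3 and 1.28 FPKM (KO). The highest and the lowest of the 4 values were both in KO libraries, and the KO standard deviation of 8.53 FPKM exceeded the KO mean of 7.31 FPKM. Its log2 fold change was -1.12 (SE 0.86, limma adjusted p = 0.4997).

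Loxl2, a collagen IV and fibrillar collagen crosslinker whose scavenger receptor domains set it apart from Lox and Loxl1, is on chromosome 14 from 70009283 to 70095641. Both WT libraries, with 8.06 and 7.33 FPKM, enclosed KO replicate 1 at 7.69 FPKM, and KO replicate 2 held 0.537 FPKM. The first 3 libraries agreed within 1.10 times of each other, the tightest of the 10 genes, while the WT mean was 14.3 times the level in KO replicate 2, the widest gap of the 10. At the estimated depth about 35.6 fragments stood behind that low value. The log2 fold change was -1.25 (SE 0.82, limma adjusted p = 0.441).

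Loxl3, on chromosome 6 from 82984218 to 83002558, belongs with Loxl2 and Loxl4 to the members with scavenger receptor domains. Its levels were 1.93 and 2.33 FPKM (WT) against 1.67 and 0.357 FPKM (KO). This was the only tested gene of the 9 in which the KO values lay wholly below the WT values, an order seen in 20.5% of all genes tested. The opposite order was in 0 of the 9, beside 35.3% of all genes tested, and either order in 1 of the 9, beside 55.8%. The log2 fold change was -0.72 (SE 0.39, limma adjusted p = 0.379), and with a pseudocount of 0.1 in place of 1 FPKM it was -1.31 (limma adjusted p = 0.406). About 18.7 fragments stood behind the value in KO replicate 2. An exon of Loxl3 overlaps Htra2 on the opposite strand, and use of the strand in counting is not given in the sources used here.

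Loxl4, on chromosome 19 from 42666769 to 42687296, was the exception among the lysyl oxidases. It stood at 0.551 and 0.569 FPKM (WT) against 1.01 and 0.884 FPKM (KO), so both KO values were above both WT values and KO replicate 2 was not low. Both KO values were above both WT values in 35.3% of all genes tested. Loxl4 did not pass the filter and was not tested. Its values rest on about 30.3 to 51.7 fragments per library.

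Plod1, the lysyl hydroxylase whose loss causes a form of Ehlers-Danlos syndrome, is on chromosome 4 from 147283862 to 147310885. It stood at 14.4 and 23.1 FPKM (WT) against 15.0 and 5.56 FPKM (KO), a log2 fold change of -0.91 (SE 0.50, limma adjusted p = 0.385). Plod3, a lysyl hydroxylase that also adds sugars to hydroxylysine, is on chromosome 5 from 137462889 to 137472516. It stood at 16.4 and 23.7 FPKM (WT) against 16.8 and 8.01 FPKM (KO), a log2 fold change of -0.71 (SE 0.41, limma adjusted p = 0.401). In both genes KO replicate 1 was just above the lower WT library and KO replicate 2 was the lowest, 2.59 times below the next library for Plod1 and 2.04 times for Plod3. Plod3 overlaps Znhit1 on the opposite strand and Mir702 on the same strand.

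Plod2, the lysyl hydroxylase of collagen telopeptides, whose product directs crosslinks to the hydroxylysine type found in scars, is on chromosome 9 from 92437061 to 92503265. Its levels were 2.73 and 1.86 FPKM (WT) against 2.51 and 2.32 FPKM (KO). Both KO libraries were between the WT libraries. The log2 fold change was 0.07, with a 95% interval from -0.60 to 0.74 (limma adjusted p = 0.906), so a difference of up to about that size in either direction was not detectable with 2 libraries a group.

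P4ha1, on chromosome 10 from 58786044 to 58836052, encodes the catalytic subunit of a prolyl 4-hydroxylase that is used in nearly all tissues. It stood at 10.3 and 7.87 FPKM (WT) against 9.16 and 9.01 FPKM (KO), both KO values between the WT values. The log2 fold change was 0.01, with a 95% interval from -0.63 to 0.65 (limma adjusted p = 0.984). With libraries scaled by median-ratio factors the log2 fold changes of P4ha1 and Plod2 were -0.11 and -0.03, a change of sign, while the median of all genes tested moved from 0.11 to -0.01.

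Serpinh1, on chromosome 7 from 106493885 to 106501749, stood at 65.2 and 90.3 FPKM (WT) against 81.0 and 39.1 FPKM (KO). KO replicate 1 was inside the WT range, and KO replicate 2 was 1.67 times below the lowest of the other libraries, a smaller step than in Lox and Loxl1 to Loxl3. The log2 fold change was -0.44 (SE 0.42, limma adjusted p = 0.577).

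RefSeq promoters were matched for 5 of the 10 genes, which differed in KO replicate 2. The WT mean was 3.37 times the level in that library for Plod1, 2.50 times for Plod3, 1.99 times for Serpinh1 and 1.01 times for P4ha1, and the level of Loxl4 was above its WT mean. The 250 bases before the annotated start of all 5 are shown, on GRCm38.p6, so that genes that parted in this library can be compared. Capitals mark the core of the hypoxia response element, ACGTG or GCGTG on either strand, the letters that hypoxia-inducible factors bind, searched because several of the 10 genes are known targets of these factors.
Loxl4: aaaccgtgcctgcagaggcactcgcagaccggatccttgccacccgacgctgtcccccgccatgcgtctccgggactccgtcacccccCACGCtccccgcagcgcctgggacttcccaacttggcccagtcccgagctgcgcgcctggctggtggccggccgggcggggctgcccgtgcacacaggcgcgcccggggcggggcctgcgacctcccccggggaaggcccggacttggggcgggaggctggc
Plod1: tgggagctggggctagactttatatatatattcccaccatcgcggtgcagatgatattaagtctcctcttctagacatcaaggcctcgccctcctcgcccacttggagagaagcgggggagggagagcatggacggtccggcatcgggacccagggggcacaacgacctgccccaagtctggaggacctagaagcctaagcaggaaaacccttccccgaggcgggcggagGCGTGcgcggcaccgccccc
Plod3: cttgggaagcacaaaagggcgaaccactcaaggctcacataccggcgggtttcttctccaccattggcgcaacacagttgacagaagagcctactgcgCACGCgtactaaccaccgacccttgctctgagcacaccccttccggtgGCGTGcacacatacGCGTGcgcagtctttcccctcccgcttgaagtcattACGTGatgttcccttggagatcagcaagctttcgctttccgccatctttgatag
P4ha1: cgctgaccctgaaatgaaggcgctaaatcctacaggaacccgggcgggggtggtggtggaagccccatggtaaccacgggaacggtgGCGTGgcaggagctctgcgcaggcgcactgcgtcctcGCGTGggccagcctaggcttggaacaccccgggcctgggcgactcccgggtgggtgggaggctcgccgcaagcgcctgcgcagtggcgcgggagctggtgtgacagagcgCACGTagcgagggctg
Serpinh1: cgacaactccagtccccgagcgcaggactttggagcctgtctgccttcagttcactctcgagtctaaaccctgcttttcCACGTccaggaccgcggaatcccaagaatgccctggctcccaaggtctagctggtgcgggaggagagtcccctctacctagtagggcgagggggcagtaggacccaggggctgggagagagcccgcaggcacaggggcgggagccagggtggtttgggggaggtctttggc
The windows are at chr19:42612807-42613056 on the minus strand for Loxl4, chr4:147936777-147937026 on the minus strand for Plod1, chr5:136986769-136987018 on the plus strand for Plod3, chr10:59323046-59323295 on the plus strand for P4ha1 and chr7:99353240-99353489 on the minus strand for Serpinh1. All 5 hold the core, 4 times in Plod3, 3 times in P4ha1 and once each in Loxl4, Plod1 and Serpinh1. Among 32851 mouse promoter windows of this length, 38.6% hold it on either strand. These were not matched for GC content, which was 55.6% (Plod3) to 76.0% (Loxl4) in the 5 windows. Of the known targets named below, Lox, Loxl2, Plod2 and P4ha1, only P4ha1 has a window here. The form ACGTG alone, held by 16.6% of all windows, was in those of Plod3, P4ha1 and Serpinh1. The heat shock element GAANNTTC, searched on both strands because Serpinh1 is a heat shock protein, was in none of the 5 windows and in 6.7% of all.

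The log2 fold changes of the 9 genes had a median of -0.72, beside 0.11 over all genes tested, and 7 were negative. The size of the negative values rested on KO replicate 2. Lox (-0.11), Loxl3 (-0.23), Plod1 (-0.27) and Plod3 (-0.22) stayed negative, but nearer to none, without that library. Without it the median was 0.00, the log2 fold changes ran from -0.27 in Plod1 to 0.21 in Loxl1, and 0 of 9 genes were called, or had an unadjusted p under 0.05, by limma. Of all genes tested, 0.115% were then called lower and 0.215% higher, and 3.91% were lower and 8.67% higher at that unadjusted p. Without KO replicate 1 the median was -1.20 and 5 of 9 were called lower, Lox, Loxl1, Loxl2, Loxl3 and Plod1, with adjusted p-values of 0.00308 to 0.0423 by limma, against 9.2% of all genes tested, and 0 were called higher, against 6.59%. That fit compares a single KO library with WT and assumes that it varies as the WT libraries do. Loxl1 moved most, from a log2 fold change of 0.21 without KO replicate 2 to -2.45 without KO replicate 1, and Loxl2 next, from 0.00 to -2.50. The count of genes whose KO values lay wholly below the WT values, 1 of 9, was 5 of 9 with median-ratio or upper-quartile scaling, where the share over all genes tested was 26.9% and 25.5% in place of 20.5%. For a single gene, 2 against 2 libraries allow no p below 0.333 in a two-sided exact permutation test.

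**Figure D2:**
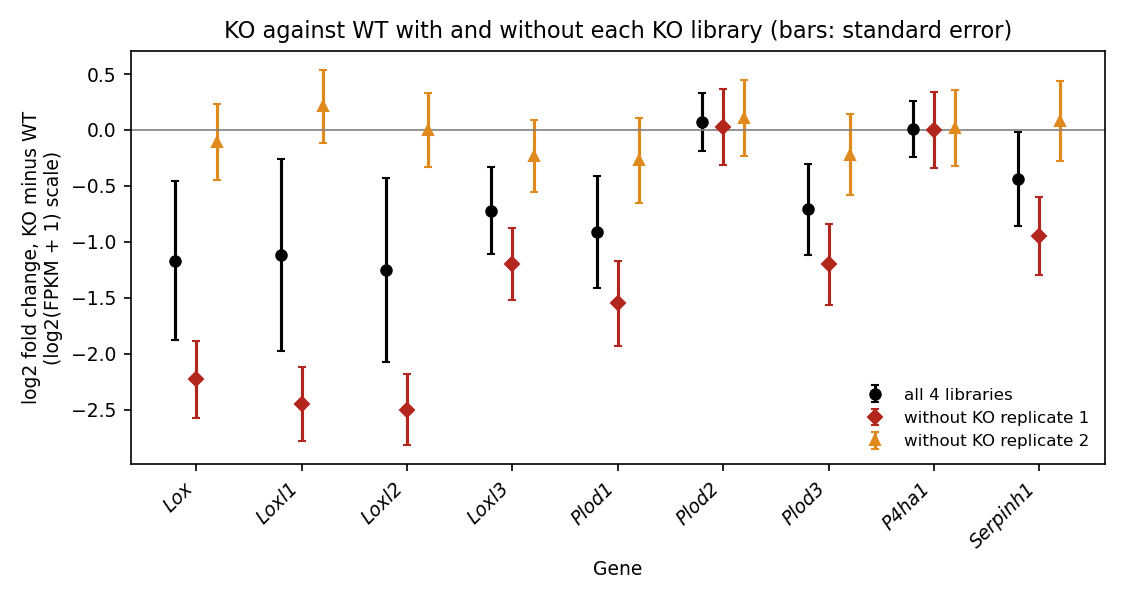
Log2 fold change (KO minus WT, log2(FPKM + 1) scale) of the 9 tested genes, with standard error bars, from all 4 libraries and without either KO library. The values without KO replicate 2 lie between -0.27 and 0.21, and those without KO replicate 1 reach -2.50 in Loxl2, while Plod2 and P4ha1 stay near 0 in all 3 fits.

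The number of genes at least 2-fold lower in KO replicate 2 than in every other library, 6 of 9, was also 6 under TPM, median-ratio and upper-quartile scaling. Fibroblast markers had this order in 8 of 10 genes, endothelial markers in 7 of 7 and macrophage markers in 8 of 8, against 11.0% of all genes tested. Their part in the values of the lysyl oxidases was not tested. Keratinocyte markers had it in 1 of 7 genes and skeletal muscle markers in 1 of 7.

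**Figure D3:**
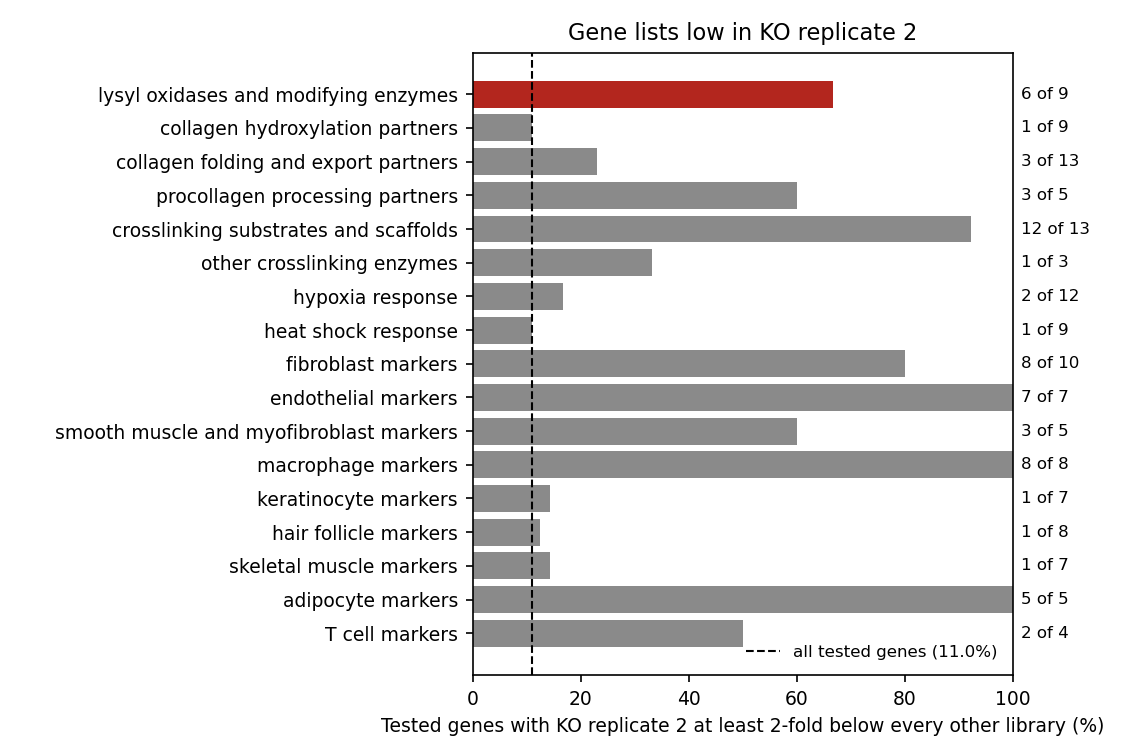
Share of tested genes (percent) in each gene list for which KO replicate 2 was at least 2-fold below every other library, with counts at the right and the share over all tested genes (11.0%) as a dashed line. The lysyl oxidases and modifying enzymes reach 6 of 9, near the fibroblast markers (8 of 10) and above the keratinocyte markers (1 of 7).

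Set against the fibroblast markers of the same library, the genes split by KO replicate 2. The median of the 9 genes, minus the mean of the 10 markers on the log2(FPKM + 1) scale, was -0.51 and -0.47 in WT, -1.22 in KO replicate 1 and -0.42 in KO replicate 2. The KO mean was 0.33 log2 units below the WT mean (-0.82 against -0.49), with p = 1 in an exact two-sided permutation test, and KO replicate 2 was above both WT libraries. Lox, Loxl1 and Loxl2, 3 of the 9 genes, were below both WT libraries in both KO libraries on this scale, against 2.56% of all genes tested. The marker mean itself was 4.23 and 3.98 in WT, 4.82 in KO replicate 1 and 2.15 in KO replicate 2, and its part in this order was not tested. Loxl2, for example, was at -1.05 and -0.92 in WT and at -1.70 and -1.53 in KO mice. The exact permutation p was 0.333 for each of these 3 genes, the smallest that the design allows.

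KO replicate 2 was the highest library on this scale for Plod2, Plod3, P4ha1 and Serpinh1, with a pseudocount of 1 or 0.1 FPKM. Loxl3 was at -2.68 and -2.24 in WT, at -3.40 in KO replicate 1 and at -1.71 in KO replicate 2, but this order rested on the pseudocount: with 0.1 FPKM its value in KO replicate 2, -2.75, was between the WT values of -3.07 and -2.53. P4ha1 was at -0.73 and -0.83 relative to the markers in WT, at -1.47 in KO replicate 1 and at 1.17 in KO replicate 2. Serpinh1 was at 1.82 and 2.53 in WT, at 1.54 in KO replicate 1 and at 3.17 in KO replicate 2. KO replicate 1, the library in which the markers themselves were highest, was the lowest on this scale for the 8 genes other than Loxl1, where both KO libraries were at -0.97. With a pseudocount of 0.1 FPKM, KO replicate 2 was the lowest for Loxl1 and Loxl2.

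**Figure D4:**
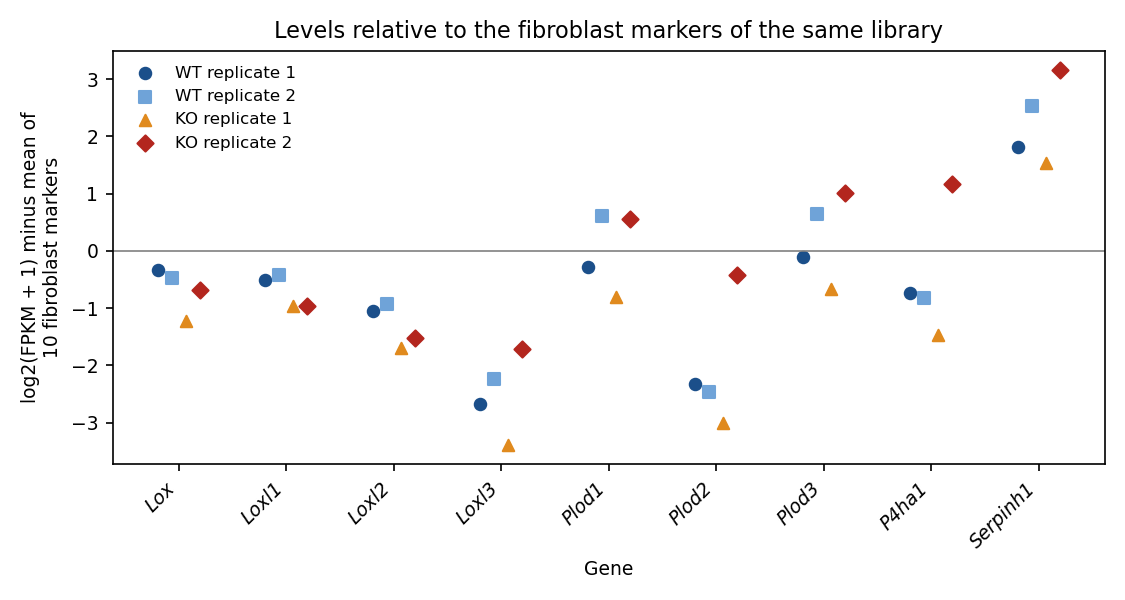
Level of the 9 tested genes relative to the mean of 10 fibroblast markers in the same library (difference on the log2(FPKM + 1) scale), 1 point per library. For Lox, Loxl1 and Loxl2 both KO libraries lie under the WT points, and for Loxl3, P4ha1, Plod2, Plod3 and Serpinh1 KO replicate 2 is the highest (for Loxl3 not with a pseudocount of 0.1 FPKM).

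The main substrates of these enzymes followed the same libraries with a wider range. Col1a1, a chain of type I collagen, stood at 33.2 and 36.2 FPKM (WT) against 59.8 and 2.34 FPKM (KO), and Col3a1, the type III collagen chain, had 72.4 and 60.9 FPKM against 114.2 and 6.45 FPKM. KO replicate 1 was the highest library for both chains, which it was for only Loxl1 and Loxl4 among the enzymes. Per unit of Col1a1, Lox was at 0.418 and 0.288 in WT, 0.185 in KO replicate 1 and 0.759 in KO replicate 2. Loxl2 was at 0.243 and 0.202 in WT, 0.129 in KO replicate 1 and 0.229 in KO replicate 2. P4ha1 was at 0.311 and 0.217 in WT, 0.153 in KO replicate 1 and 3.84 in KO replicate 2, and Serpinh1 at 1.97 and 2.49 in WT, 1.35 and 16.7 in KO replicates 1 and 2. Among the other lysyl oxidases, Loxl1 was at 0.366 and 0.297 in WT and 0.544 in KO replicate 2, and Loxl3 at 0.0582 and 0.0643 against 0.152. The ratio of Loxl4 was 0.0166 and 0.0157 in WT, 0.0169 in KO replicate 1 and 0.377 in KO replicate 2. Loxl2 was thus the only one of the 10 genes whose ratio in KO replicate 2 was within the WT range, and the other 9 were above it. In KO replicate 1 every gene but Loxl4 was below its WT ratios.

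Of the list of 13 crosslinking substrates and scaffolds, 0 were called with all 4 libraries. KO replicate 2 was at least 2-fold below every other library in 12, against 11.0% of all genes tested. Fn1, which encodes fibronectin, a scaffold that binds lysyl oxidases, had the lowest log2 fold change of the list at -3.73 (limma adjusted p = 0.248), with 91.5 and 84.9 FPKM (WT) against 20.6 and 1.09 FPKM (KO). The exception was Postn, which encodes periostin, a matricellular protein that promotes lysyl oxidase activation. It stood at 58.6 and 30.9 FPKM (WT) against 106.3 and 175.2 FPKM (KO), the highest in KO replicate 2, with a log2 fold change of 1.66 (SE 0.42, limma adjusted p = 0.248). The median of the list was -0.80 over all libraries, 0.77 once KO replicate 2 was left out and -1.98 once KO replicate 1 was, and the corresponding medians of the 9 enzyme genes were -0.72, 0.00 and -1.20.

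The other enzymes and chaperones of collagen synthesis were read from 3 lists of 33 genes, of which 27 were tested. By limma 0 were called, 0 were lower and 1 was higher at an unadjusted p under 0.05 (6.22% and 10.9% of all genes tested). Their median log2 fold change was -0.13, and KO replicate 2 was at least 2-fold below every other library in 7 of the 27, against 11.0% of all genes tested. Without KO replicate 1 the medians were -0.40 (hydroxylation), -0.41 (folding and export) and -0.91 (procollagen processing). Without KO replicate 2 they were 0.15, 0.09 and 0.45.

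Within the hydroxylation list the extremes were P3h1 and P3h2, both prolyl 3-hydroxylases. P3h1 stood at 5.43 and 7.05 FPKM (WT) against 5.67 and 1.86 FPKM (KO), like Plod1, while P3h2 stood at 2.59 and 2.58 FPKM (WT) against 3.90 and 4.74 FPKM (KO). P4hb, the beta subunit that pairs with P4ha1 and also serves as the general protein disulfide isomerase, stood at 136.0 and 131.8 FPKM (WT) against 159.9 and 153.3 FPKM (KO). P4ha1 and P4hb, the subunits of 1 enzyme, thus both lacked the low value in KO replicate 2.

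Among folding and export factors, Fkbp10, the isomerase that works with Plod2 on telopeptide lysines, stood at 9.33 and 11.6 FPKM (WT) against 11.2 and 1.59 FPKM (KO). Fkbp10 and Plod2 therefore parted in KO replicate 2. Sparc, a collagen-binding matricellular protein, had the lowest log2 fold change of that list at -1.22 (limma adjusted p = 0.464). The low value of Sparc rested on KO replicate 2: it moved to 0.07 once that library was dropped. Dropping KO replicate 1 instead took Sparc to -2.51. Pdia3, a disulfide isomerase for glycoproteins of every kind, had the highest at 0.87 (limma adjusted p = 0.272). It stayed positive in these 2 fits, at 0.70 and 1.05. WT libraries held 63.5 and 41.6 FPKM of Pdia3, KO libraries 84.2 and 107.2 FPKM. Mia3 was listed at 0 in all 4 libraries, but its only row used here lies on chromosome 1_random of mm9. Its level in skin cannot be read from that row.

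Among the proteases and enhancers that trim procollagen, Bmp1, which also cleaves the propeptide of Lox, stood at 10.6 and 13.3 FPKM (WT) against 18.3 and 10.3 FPKM (KO) (log2 fold change 0.20, limma adjusted p = 0.770). Pcolce, the enhancer of Bmp1 on procollagen, stood at 25.4 and 24.8 FPKM (WT) against 34.7 and 3.74 FPKM (KO). The enhancer was thus low in KO replicate 2 as Lox and Loxl1 were, and the protease was near the WT values there. Crosslinking enzymes of another kind, 3 genes, were listed too. Tgm2, a transglutaminase, stood at 138.4 and 153.1 FPKM (WT) against 114.5 and 63.8 FPKM (KO). It was the only one of these 3 with both KO values under both WT values, an order that 20.5% of all genes tested had. F13a1, also a transglutaminase, stood at 15.4 and 13.6 FPKM (WT) against 15.4 and 1.42 FPKM (KO), and Pxdn, the peroxidase that crosslinks collagen IV, had 6.10 and 10.5 FPKM against 9.74 and 3.08 FPKM.

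Lox, Loxl2, Plod2 and P4ha1 are known targets of hypoxia-inducible factors, and Serpinh1 of the heat shock factor Hsf1. Of 12 other hypoxia-response genes 0 were called, and KO replicate 2 was at least 2-fold below every other library in 2. Their median log2 fold change was -0.09. Dropping KO replicate 1 moved it to -0.13, and dropping KO replicate 2 moved it to 0.03. Vegfa stood at 41.4 and 52.0 FPKM (WT) against 49.8 and 39.4 FPKM (KO). The extremes of the list were Slc2a1 at a log2 fold change of 0.53 and Ndrg1 at -0.48. With KO replicate 1 dropped they came to 0.55 and -1.09, and with KO replicate 2 dropped to 0.50 and 0.12. Of 9 other heat shock genes 0 were called, with a median of 0.36, from Hspa1b at 0.97 to Hspb1 at -0.69. The heat shock median rose to 0.58 on dropping KO replicate 1 and fell to 0.14 on dropping KO replicate 2. Hspb1 came to -1.28 and -0.10 in these 2 fits, and Hspa1b to 1.02 and 0.91. Serpinh1 and Hspb1 had their lowest level in KO replicate 2, and Hspa1b had its highest there, at 63.0 FPKM against 29.0 and 32.0 FPKM (WT).

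The genes whose pattern over the 4 libraries was most like the mean pattern of the 9, by the root-mean-square difference of centred log2(FPKM + 1) values, were Rusc2 (0.0261), Mapre2 (0.033) and Ripor1 (0.0403 log2 units). The mean pattern itself was 0.32 and 0.37 in WT, 0.30 in KO replicate 1 and -0.99 in KO replicate 2. Among the 9 genes Loxl3 was nearest to it, at 0.124 log2 units, and Plod2 and P4ha1 were farthest, at 0.593 and 0.588. Rusc2 stood at 6.11 and 6.58 FPKM (WT) against 6.28 and 1.86 FPKM (KO).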

How the data were processed

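RNA-seq of BLM-treated skin was read from a single deposited table of 4 libraries, 2 WT and 2 GSDMD KO. The submitters' processing notes name HISAT2 version 2.0.1, StringTie version 2.0.6 and mm9, and the paper's methods describe gene-level read counting and DESeq2 by the authors. The deposited values are FPKM, fragments that the authors had normalised for transcript length and for depth, since 99.993% of values above 0 are not whole, although the table is named as counts. The program that made them is not given in the sources used here, and no count model was run. Of 20310 genes found by symbol in the mm9 annotation, 99.2% overlapped it.

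A filter of 1 FPKM or more in 2 or more libraries kept 13027 genes, whose log2(FPKM + 1) values entered limma (version 3.58.1, R version 4.3.3; genotype as the only term, mean-variance trend, Benjamini-Hochberg adjustment over all of them). Depth was estimated from 2710 single-transcript genes, and fragments per gene from the longest coding transcript, so both are rough and carry no interval. Tables were made with Python version 3.11.15.

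The genes and gene lists were chosen with earlier results of these data known. Named were all 10 genes, the extremes of each pathway list with a few fixed partners, and the 3 genes nearest in pattern. The rule on KO replicate 2 and the Col1a1 ratios were chosen after the values had been seen, as were the naming of Mia3 and Tgm2, the search for GCGTG and the relative levels of single genes with a pseudocount of 0.1 FPKM. Same-numbered libraries were treated as unpaired, and the correlation of their deviations was -0.20. Alternatives were other pseudocounts, scalings, filters, no trend, the replicate block and leaving out each library.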

Additional observations from a re-analysis of the deposited data

How the results depend on the processing

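The count of genes called was 0 in every planned setting except without KO replicate 1 (of 9 genes, of 10 with no filter and of 7 with a filter at 5 FPKM), and ranged from 0 to 5 on leaving out a library. The replicate number as a block gave 0 calls, as did the crossed pairing, added after seeing the data, and the blocks changed no other call. The count with both KO libraries below both WT libraries, 1 of 9, was 5 with median-ratio and with upper-quartile scaling (26.9% and 25.5% of all genes tested), 0 with a filter at 5 FPKM, which left 7 genes (21.9%), and 1 to 7 on leaving out a library (26.6% to 37.0%). The median log2 fold change of -0.72 kept its sign under the other pseudocounts, scalings and filters, from -0.99 to -0.71, and ran from -1.20 without KO replicate 1 to 0.00 without KO replicate 2. The level relative to the fibroblast markers, -0.33, was 0.25 with the filter at 5 FPKM, 0.13 against endothelial markers, 0.37 against Col1a1 alone and -0.51 against smooth muscle and myofibroblast markers (exact permutation p = 0.333, the smallest possible), and it ran from -0.74 without KO replicate 2 to 0.07 without KO replicate 1, so its sign depended on the reference, the filter and the library. The cause was not tested. With median-ratio and upper-quartile scaling the sign changed in Plod2, to -0.03 and 0.00, and in P4ha1, to -0.11 and -0.08. On leaving out a library Plod2 ran from -0.13 to 0.26, P4ha1 from -0.16 to 0.19, Loxl1 from -2.45 to 0.21, Loxl2 from -2.50 to 0.00 and Serpinh1 from -0.95 to 0.08. Lox ran from -2.23 to -0.11, Loxl3 from -1.20 to -0.23, Plod1 from -1.55 to -0.27 and Plod3 from -1.20 to -0.22. The loss of a library left a group with 1 sample, assumed to vary like the other group. With 2 libraries a group, differences of the size of the 95% intervals given for Plod2 and P4ha1 could not be detected. Where KO replicate 2 set the SD, the 95% intervals were wider, such as -2.99 to 0.64 in Lox, -3.33 to 1.08 in Loxl1 and -3.33 to 0.84 in Loxl2. Larger differences could thus not be detected in those genes.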
